A study of Mus musculus with 6 samples.

Results

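The genes described here encode the proteasome, its inducible catalytic subunits, its activators and its assembly chaperones, in the liver of mice with and without Nrf2. Members were all probe sets with exactly 1 annotated gene symbol that begins with Psma, Psmb, Psmc, Psmd, Psme, Psmf or Psmg and a digit. The rule found 103 of the 45101 probe sets of the array, standing for 49 of 18193 genes with a probe set of their own. Both groups had the mouse strain C57B/SV129 and an age of 10 weeks. The Nrf2 ko group and the Nrf2 wt group each had 3 arrays, and each array held liver RNA pooled from 3 animals. The labels name no treatment or surgery for either group and do not describe the targeted allele. The measured spread is that of pools; differences among single animals cannot be seen. Whether the pools of a group are separate animals throughout is not stated, so the p-values measure only the spread between these arrays.

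The proteasome degrades proteins that carry a chain of ubiquitin. Its core particle is a barrel of alpha rings around beta rings, and the beta subunits encoded by Psmb5, Psmb6 and Psmb7 cut the substrate. A regulatory particle caps the barrel, with a base of ATPases that unfolds the substrate and a lid that removes ubiquitin. In immune cells and after interferon, Psmb8, Psmb9 and Psmb10 replace the standard catalytic subunits and form the immunoproteasome, which makes peptides for class I antigen presentation. Nrf2 is known to raise proteasome genes after exposure to inducing chemicals, while the related factor Nrf1, encoded by Nfe2l1, restores them when the proteasome is inhibited.

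The deposited values were probe set intensities, used here as normalised log2 intensity, and 22519 probe sets bright enough on average were compared with limma. The labels were checked on the targeted gene, Nfe2l2, whose brightest probe set had normalised log2 intensities of 3.54, 3.74 and 3.56 in knockout pools 1 to 3, against 9.19, 9.49 and 9.07 in the wild-type pools. It fell in the knockout (limma adjusted p = 2.22e-06), and its knockout intensities of 5.74, 7.40 and 6.90 lay near the pseudocount of 5.26. The fitted log2 difference of -5.64 therefore depends on the pseudocount, being -4.48 with a higher and -6.20 with a lower one, and is not a measured size. A dimmer Nfe2l2 probe set, with wild-type pools at 5.09, 4.93 and 4.59, was at 0.14 ± 0.22 and showed no such gap, and the mean of both probe sets was at -2.75. Where either lies relative to the targeted part of the gene is not known here. Array brightness, as a 2% trimmed mean, lay between 92.7 and 132. The hepatocyte genes Cps1 and Apoa1 lay above 13.2 on the log2 scale in all 6 pools. The ratio of 3′ to 5′ signal of the actin control, a sign of RNA quality, was 1.94, 1.96 and 2.01 in knockout pools 1 to 3, against 1.77, 1.94 and 1.88 in the wild-type pools (exact two-sided permutation p = 0.1, the smallest that 3 against 3 allows). The same ratio for the Gapdh control did not separate the genotypes (exact two-sided permutation p = 0.9). Knockout pools 1 to 3 had Gapdh ratios of 0.78, 0.73 and 0.79, on both sides of the wild-type values of 0.76, 0.77 and 0.76. The part of RNA quality in the differences below was not tested. In bulk tissue, fewer cells of a type and less RNA per cell cannot be told apart.

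No proteasome gene passed the test. Most genes of the particle itself were slightly higher in the knockout, while most of those that assemble or activate it were slightly lower. Of the 47 members that encode proteasome proteins, 45 had a tested probe set, and each gene is given by its brightest one. They were higher in the knockout for 32 of 45, against 51.4% of all tested genes and 53.5% of the 2676 genes at least as bright as the lower quartile of these members. Of the 31 subunit genes of the standard core and the regulatory particle, 28 were higher, with a median log2 difference of 0.11. Of the other 14 genes, which include Psmb8, Psmb9, Psmb10 and the inhibitor gene Psmf1, 10 were lower, with a median of -0.07. The median over all tested genes was 0.01. None of the 45 had a limma adjusted p under 0.05, where 0.144% of all tested genes did, and the smallest was 0.148. At an unadjusted p under 0.05 there were 6 higher, against 4.07% of all tested genes, and 3 lower, against 4.15%. The pools of the genotypes did not overlap for 11 genes that were higher, where 7.38% of all genes behaved so, and for 2 that were lower, against 6.55%.

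**Figure D1:**
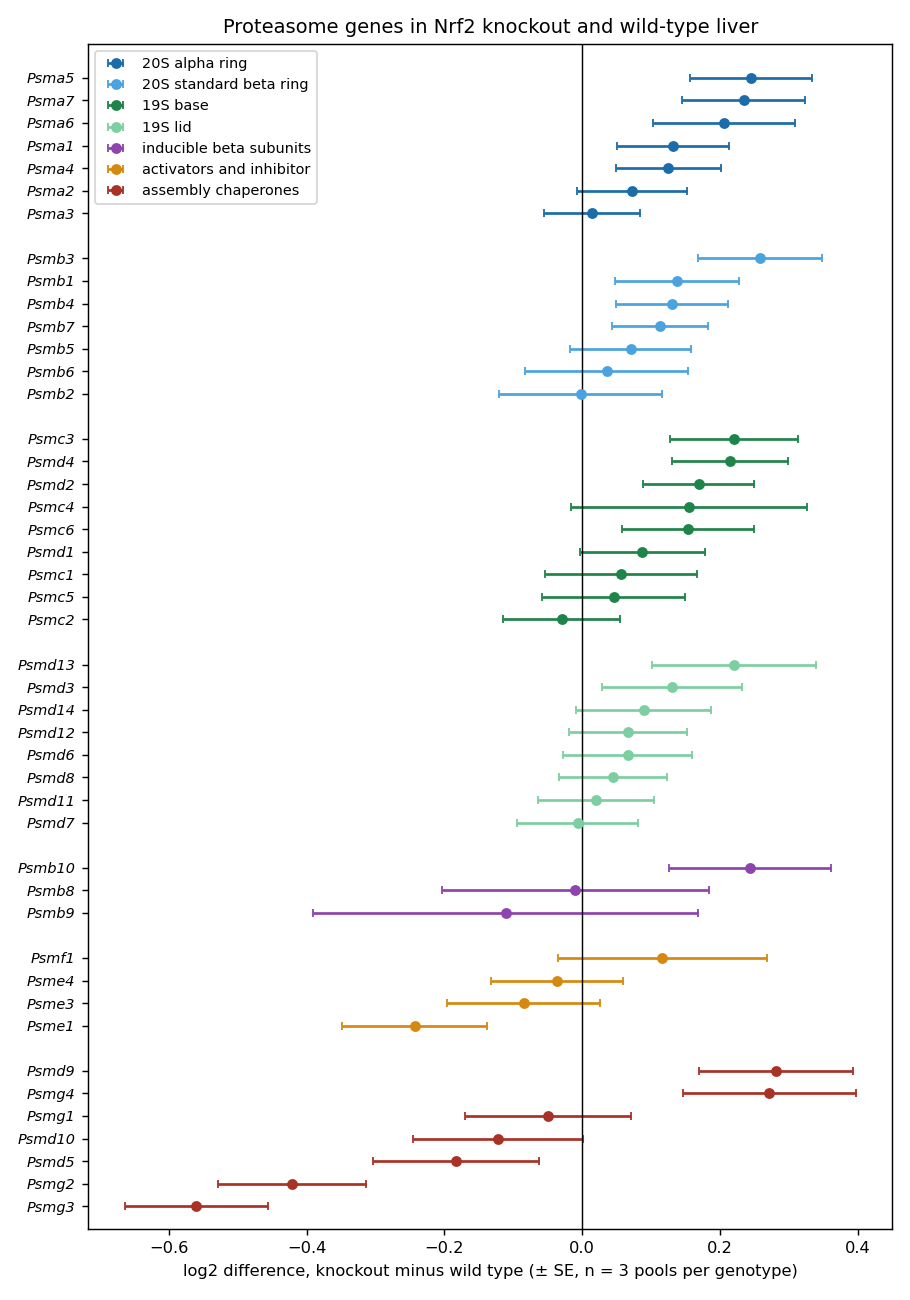
Log2 difference in intensity between knockout and wild-type liver (x axis) for the 45 tested proteasome genes (y axis), at the brightest probe set of each, with bars of 1 SE (n = 3 pools per genotype); colours mark the parts of the proteasome. Most core and regulatory particle genes lie to the right of 0, the largest being Psmb3 at 0.26, while Psmg2 and Psmg3 lie farthest to the left at -0.42 and -0.56.

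How many of these small positive differences had an unadjusted p under 0.05 depended on scaling and on single pools. The median log2 difference of the 31 subunit genes was 0.066 with median centring. Without any 1 pool it stayed between 0.091 and 0.12, with 26 to 29 of the 31 higher. With median centring of the arrays, 24 of the 31 subunit genes were higher and 0 proteasome genes had an unadjusted p under 0.05 in that direction, while the median of all genes moved to -0.03. That count was 1 if knockout pool 2 was left out, 0 if wild-type pool 2 was left out, and 0 if the intensity trend of the fit was dropped.

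In the alpha ring, which forms the gate of the barrel, all 7 tested genes were higher in the knockout at their brightest probe sets, with a median log2 difference of 0.13. Psma1 was at -0.02 with the mean of its probe sets, and Psma3 at -0.02 without knockout pool 2. Psma5 had normalised log2 intensities of 11.04, 10.996 and 10.88 in knockout pools 1 to 3, against 10.86, 10.70 and 10.63 in the wild-type pools. Each knockout pool was above each wild-type pool, by little in the closest pair. The log2 difference was 0.24 ± 0.09 (SE, n = 3 per genotype), 1.18-fold, with an unadjusted p of 0.0230 and a limma adjusted p of 0.599. Its other tested probe set gave 0.22 ± 0.09 and was also without overlap. Psma7 was at 10.18, 10.27 and 10.21 in the knockout and 10.12, 9.93 and 9.92 in the wild type, again without overlap. This is a difference of 0.23 ± 0.09 (limma adjusted p = 0.607). The other tested Psma7 probe set gave 0.19 ± 0.12, with overlapping groups. Psma3 had the smallest difference of the ring, 0.01 ± 0.07, with knockout pools at 11.42, 11.49 and 11.38 and wild-type pools at 11.40, 11.46 and 11.40. Those pools overlapped throughout. The remaining ring genes, Psma1, Psma2, Psma4 and Psma6, lay between 0.07 and 0.21, and Psma4 was without overlap. Another bright Psma6 probe set was at 0.30 ± 0.12, with overlapping groups.

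In the standard beta ring, 6 of 7 genes were higher, with a median log2 difference of 0.11. Psmb3, a structural subunit without a cutting site, had the largest difference of the core and regulatory particle genes at their brightest probe sets. Its intensities were 9.64, 9.69 and 9.64 in knockout pools 1 to 3, against 9.41, 9.28 and 9.50 in the wild-type pools. The groups did not overlap, and the difference was 0.26 ± 0.09 (SE, n = 3 per genotype), 1.20-fold, with an unadjusted p of 0.0198 and a limma adjusted p of 0.573. A second Psmb3 probe set gave 0.22 ± 0.10, likewise without overlap. Psmb2, another structural subunit, had knockout pools at 9.44, 9.27 and 9.08, wild-type pools at 9.18, 9.40 and 9.21, with a difference of -0.0018 ± 0.12. Those pools overlapped. Psmb1 and Psmb4 were at 0.14 and 0.13. A dim Psmb1 probe set was at -0.68 ± 0.49, and with the mean of its probe sets Psmb1 was at -0.15.

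The standard catalytic subunits showed small differences. Psmb5, the chymotrypsin-like subunit and the target of bortezomib, was at 9.75, 9.88 and 9.82 in the knockout and 9.65, 9.77 and 9.82 in the wild type. The pools overlapped, and the difference was 0.07 with a 95% confidence interval from -0.13 to 0.27. Psmb6, the caspase-like subunit, was at 9.86, 10.03 and 9.95 in the knockout and 9.80, 10.16 and 9.77 in the wild type. Here wild-type pool 2 was the highest of all, and the difference was 0.04 (interval -0.23 to 0.31), or -0.01 with median centring. Psmb7, the trypsin-like subunit, was at 11.54, 11.55 and 11.55 in the knockout and 11.45, 11.49 and 11.36 in the wild type. Each knockout pool was above each wild-type pool, although the difference was only 0.11 (interval -0.05 to 0.27; limma adjusted p = 0.752).

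Nrf2 and Nrf1 bind, with a small Maf partner, to antioxidant response elements, and the promoters of the members were searched for the core letters of that element. RefSeq promoter windows of assembly GRCm38.p6, from 250 bases before to 50 bases after the gene start, were held for 41 of the 49 members, 44 windows in all. The letters TGACNNNGC, on either strand, were found in 6 of 44 windows, 13.6%, against 12.4% of 32851 windows of all genes. The 6 genes were Psmb5, Psmb6, Psmc6, Psmd9, Psmd12 and Psme4, whose log2 differences ranged from -0.04 for Psme4 to 0.28 for Psmd9. The letters GAAANNGAA, the core of an interferon response element, were found in 15.9% of member windows and 8.56% of all windows. They stood in the windows of Psmb3, Psmb4, Psmc2, Psmd4, Psmd9, Psme1 and Psmg4. The window of Psmb9 did not hold them, and the 8 members without a window could not be searched. The CCAAT letters were found in 36.4% of member windows and 37.4% of all windows, and the GC box letters GGGCGG in 52.3% and 35.7%. A match of letters is a description of the window and not of a bound site. The upstream bases of Psmd9, Psmb5 and Psmb6 are shown because they hold the element's whole core before the gene start and belong to genes described here with their values in every pool. The match in Psme4, whose difference was -0.04, begins 7 bases before the start and runs across it, so that window is not shown. Each is written 5′ to 3′ on the gene's strand, the matching letters in capitals. Psmd9 lies on the plus strand at chr5:123227940-123228189, Psmb5 on the minus strand at chr14:54617996-54618245 and Psmb6 on the plus strand at chr11:70525107-70525356.
Psmd9: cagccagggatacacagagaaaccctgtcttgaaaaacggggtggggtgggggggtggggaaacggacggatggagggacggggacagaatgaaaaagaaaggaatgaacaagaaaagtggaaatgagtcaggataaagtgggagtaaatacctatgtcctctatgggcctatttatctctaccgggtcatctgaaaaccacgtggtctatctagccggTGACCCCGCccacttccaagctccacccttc
Psmb5: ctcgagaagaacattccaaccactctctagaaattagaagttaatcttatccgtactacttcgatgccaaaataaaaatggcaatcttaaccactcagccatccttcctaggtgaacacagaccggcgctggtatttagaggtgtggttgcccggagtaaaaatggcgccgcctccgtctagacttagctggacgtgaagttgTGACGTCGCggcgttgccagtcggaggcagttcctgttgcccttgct
Psmb6: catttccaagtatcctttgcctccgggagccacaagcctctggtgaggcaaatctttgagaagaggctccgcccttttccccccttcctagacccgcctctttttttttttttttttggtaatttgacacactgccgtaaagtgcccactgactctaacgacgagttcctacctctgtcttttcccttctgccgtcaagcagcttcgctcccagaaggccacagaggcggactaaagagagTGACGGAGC
The match begins 31 bases before the start of Psmd9, 47 before that of Psmb5 and 9 before that of Psmb6. Of these 3 genes, Psmd9 had knockout pools that stood clear of the wild-type pools and Psmb5 and Psmb6 did not.

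In the base of the regulatory particle, 8 of 9 genes were higher, with a median log2 difference of 0.15. Psmc3, an ATPase of the base, was at 9.65, 9.90 and 9.75 in knockout pools 1 to 3, against 9.55, 9.58 and 9.51 in the wild-type pools. The groups did not overlap, and the difference was 0.22 ± 0.09 (SE, n = 3 per genotype; unadjusted p = 0.0429, limma adjusted p = 0.638). Psmd4, a receptor for ubiquitin chains, was at 9.70, 9.73 and 9.61 in the knockout and 9.44, 9.44 and 9.51 in the wild type. Its groups were likewise apart, by 0.21 ± 0.08 (unadjusted p = 0.0329, limma adjusted p = 0.612), and a second probe set gave 0.18 ± 0.09. Psmd2, a scaffold of the base, was at 0.17 ± 0.08, also without overlap. Psmc2 was the lowest of the base, with knockout pools at 10.73, 10.56 and 10.62, wild-type pools at 10.63, 10.77 and 10.61, and a difference of -0.03 ± 0.09. That probe set is of the _x_at kind, whose probes can bind related transcripts, and the other tested Psmc2 probe set gave 0.29 ± 0.13 without overlap. The other base genes, Psmc1, Psmc4, Psmc5, Psmc6 and Psmd1, lay between 0.05 and 0.16 with overlapping pools. Psmc4 was the least even of them, its wild-type pools running from 9.79 to 10.56.

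In the lid, 7 of 8 genes were higher, but the median log2 difference was 0.07, and 0.01 with median centring. Psmd13 was the highest, with knockout pools at 8.40, 8.32 and 8.19 and wild-type pools at 8.11, 8.22 and 7.92. Knockout pool 3 was below wild-type pool 2, and the difference was 0.22 ± 0.12 (SE, n = 3 per genotype; limma adjusted p = 0.721). The other tested Psmd13 probe sets gave 0.03 ± 0.11 and 0.08 ± 0.20, with overlapping groups. Psmd3 was the single lid gene without overlap, at 0.13 ± 0.10. Psmd14, the enzyme that cuts ubiquitin chains off the substrate, was at 0.09 ± 0.10. Psmd7, its inactive partner, was at 8.96, 8.88 and 8.91 in the knockout and 8.95, 8.94 and 8.88 in the wild type. Its groups coincided, with a difference of -0.01 ± 0.09. Psmd6, Psmd8, Psmd11 and Psmd12 lay between 0.02 and 0.07. No test was made of one part of the proteasome against another, since genes are not replicates.

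The inducible catalytic subunits Psmb8 and Psmb9 varied widely among the knockout pools. Psmb8 was at 8.51, 7.82 and 7.87 in knockout pools 1 to 3, against 8.22, 8.14 and 7.86 in the wild-type pools. Knockout pool 1 was the highest of the 6 and knockout pool 2 the lowest, and the difference was -0.01 (95% confidence interval -0.45 to 0.43). A second tested Psmb8 probe set gave 0.34 ± 0.22, with overlapping groups. It was dim, between 4.25 and 4.91 in the 6 pools, and of the _x_at kind. Psmb9 was at 8.66, 7.77 and 7.37 in the knockout and 8.13, 8.06 and 7.94 in the wild type. Knockout pool 1 was again the highest, the other two knockout pools were below every wild-type pool, and the difference was -0.11 (interval -0.75 to 0.53). Without knockout pool 1 the Psmb9 difference was -0.47 and the Psmb8 difference -0.23, with limma adjusted p-values of 0.549 and 0.775. Psmb10 was at 8.47, 8.56 and 8.34 in the knockout and 8.36, 8.21 and 8.06 in the wild type. Its groups overlapped by a single pair of pools, and the difference was 0.24 ± 0.12 (SE, n = 3 per genotype; limma adjusted p = 0.682).

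Within each array, the log2 ratio of an inducible subunit to the standard subunit it replaces was compared between genotypes, for 3 pairs. The ratio of Psmb8 to Psmb5 differed by -0.08, that of Psmb9 to Psmb6 by -0.15 and that of Psmb10 to Psmb7 by 0.13. The exact two-sided permutation p-values were 0.9, 0.8 and 0.2, or 0.9, 0.9 and 0.6 when adjusted over the 3 pairs. The SD of the ratio of Psmb9 to Psmb6 was 0.72 among knockout pools and 0.21 among wild-type pools.

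**Figure D2:**
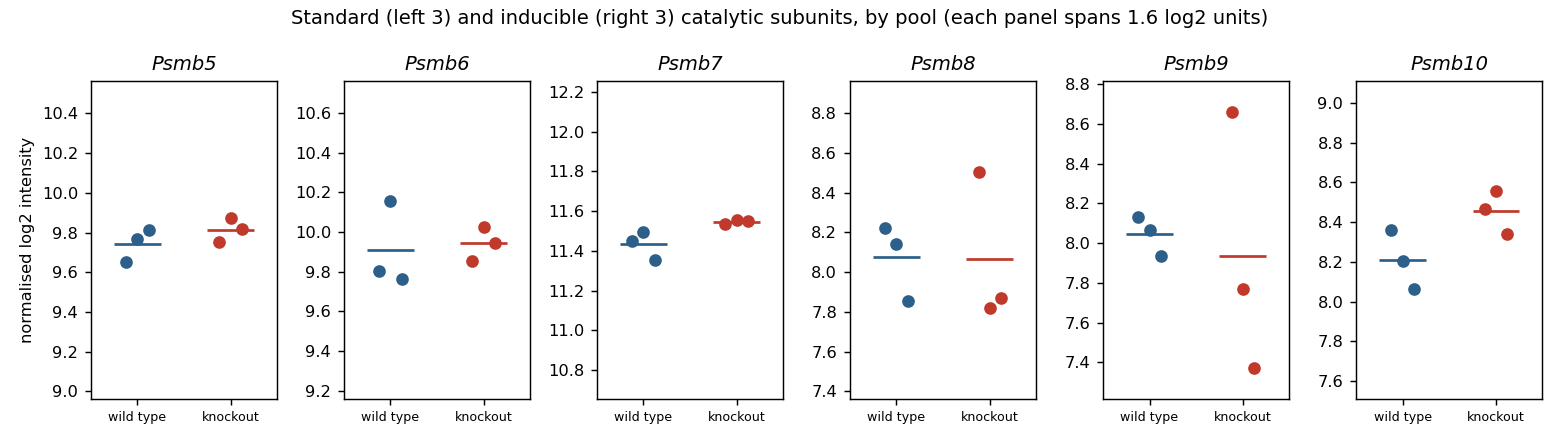
Normalised log2 intensity (y axis) of the standard catalytic subunits Psmb5, Psmb6 and Psmb7 and of the inducible ones Psmb8, Psmb9 and Psmb10 in each pool (points) with the mean of each genotype (lines), all panels spanning the same number of log2 units. Psmb8 and Psmb9 spread most among knockout pools, Psmb9 from 7.37 to 8.66, whereas Psmb7 stays between 11.36 and 11.55.

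Levels of interferon-responsive and immune cell genes were set beside the inducible subunits. The median deviation of 15 interferon-stimulated genes from their mean over all pools was 0.24, -0.02 and -0.27 log2 in knockout pools 1, 2 and 3 and 0.05, -0.10 and 0.13 in the wild-type pools. Knockout pool 1 was thus the highest and knockout pool 3 the lowest, the order of Psmb9 in the knockout. Psmb8 was instead lowest in knockout pool 2. Among the wild-type pools the interferon-stimulated genes were highest in pool 3. There Psmb8, Psmb9 and Psmb10 had their lowest wild-type values, 7.86, 7.94 and 8.06. Of the 15, 7 were higher and 8 lower in the knockout, with a median difference of -0.01, and Irf8 was the one with an unadjusted p under 0.05, at 0.40 ± 0.14 (limma adjusted p = 0.567). Irf1, a factor that drives the inducible subunits, was at 8.56, 8.36 and 7.91 in the knockout and 8.25, 8.09 and 7.91 in the wild type. Of 18 leukocyte markers with a probe set, 10 were tested, and 8, among them Cd3d, Cd3e, Cd3g, Cd4 and Cd79a, were under the filter. Of the 10, 8 were higher in the knockout, with a median of 0.22. At an unadjusted p under 0.05 there was 1 higher, Cd52 at 0.49 ± 0.18, and 1 lower, Lcp1 at -0.39 ± 0.15. Their limma adjusted p-values were 0.594 and 0.612, and both were without overlap. Cd79b and Ms4a1, counted as higher, were dim, with genotype means between 4.45 and 4.83. The summed normalised intensity of the tested ones ran from 1095 to 1703 in the knockout and from 1338 to 1550 in the wild type. For the 16 Kupffer cell and macrophage markers, all tested, it ran from 7718 to 9690 and from 7293 to 8769, with 12 of the 16 higher and a median difference of 0.19. At an unadjusted p under 0.05, 2 of the 16 were higher and 0 lower. These were Lyz2 at 0.41 ± 0.15 and C1qb at 0.30 ± 0.12 (limma adjusted p = 0.594 and 0.610). Of 13 hepatocyte markers, 7 were higher, with a median of 0.03. The part of these genes and cells in the values of Psmb8, Psmb9 and Psme1 was not tested.

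Activators open the barrel without the ATPase base. At their brightest probe sets the 3 tested activator genes were lower in the knockout, and the inhibitor gene Psmf1 was higher. Psme1, a subunit of the interferon-inducible activator PA28, was at 9.81, 9.78 and 9.64 in the knockout and 10.07, 10.09 and 9.80 in the wild type. Wild-type pool 3 lay just below knockout pool 1, so the groups overlapped by a single pair. The log2 difference was -0.24 ± 0.11 (SE, n = 3 per genotype), with an unadjusted p of 0.0473 and a limma adjusted p of 0.643. Psme2, its partner subunit, was not analysed here because its probe set carries more than 1 symbol. Psme3, the nuclear activator PA28 gamma, was at 7.43, 7.35 and 7.38 in the knockout and 7.43, 7.42 and 7.57 in the wild type, a difference of -0.08 ± 0.11. Psme4, the activator PA200, was at 10.69, 10.57 and 10.82 in the knockout and 10.81, 10.61 and 10.77 in the wild type. Its brightest probe set overlapped between groups, at -0.04 ± 0.10, while all 4 tested Psme4 probe sets were lower and those at -0.15 and -0.16 were without overlap. Psmf1, the inhibitor PI31, was at 8.15, 8.36 and 7.80 in the knockout and 8.07, 7.998 and 7.89 in the wild type, a difference of 0.12 ± 0.15. Its other tested probe sets were at -0.07 and -0.14, so its direction is not settled.

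Among the brightest tested probe sets, the largest differences were in the assembly chaperones, which guide ring and base formation and leave the finished particle. Psmg3, a chaperone of the alpha ring, was at 7.66, 7.82 and 7.81 in knockout pools 1 to 3, against 8.30, 8.38 and 8.28 in the wild-type pools. All knockout pools were well below all wild-type pools. The log2 difference was -0.56 ± 0.10 (SE, n = 3 per genotype), 1.47-fold lower, with an unadjusted p of 0.000513 and a limma adjusted p of 0.148. Over the alternatives that were run, the difference stayed between -0.62 and -0.51 and the adjusted p between 0.0867 and 0.604. Psmg2, which with Psmg1 starts the alpha ring, was at 8.19, 8.48 and 8.37 in the knockout and 8.82, 8.73 and 8.75 in the wild type. These groups were also apart, by -0.42 ± 0.11, 1.34-fold lower (unadjusted p = 0.00378, limma adjusted p = 0.392). A second tested Psmg2 probe set overlapped between groups at -0.11 ± 0.15.

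The partners of these chaperones had other values. Psmg1, which pairs with Psmg2, was at 8.70, 8.86 and 8.68 in the knockout and 8.74, 9.002 and 8.64 in the wild type, with overlapping groups and a difference of -0.05 ± 0.12. Psmg4, which pairs with Psmg3, was at 7.17, 7.25 and 7.03 in the knockout and 6.88, 6.97 and 6.78 in the wild type. Here each knockout pool was above each wild-type pool, by 0.27 ± 0.13 (SE, n = 3 per genotype; limma adjusted p = 0.669), opposite to Psmg3. Among the chaperones of the base, Psmd9 was at 8.11, 8.20 and 8.39 in the knockout and 7.92, 7.93 and 8.002 in the wild type. Its groups were apart, by 0.28 ± 0.11 (unadjusted p = 0.0342, limma adjusted p = 0.612), although its dimmer tested probe sets were at -0.07 and -0.01. Psmd5 was at 8.61, 8.46 and 8.65 in the knockout and 8.77, 8.93 and 8.57 in the wild type, a difference of -0.18 ± 0.12. Psmd10, also known as gankyrin, was at 7.12, 7.39 and 7.33 in the knockout and 7.50, 7.35 and 7.35 in the wild type, a difference of -0.12 ± 0.12. Of the 7 chaperone genes, 5 were thus lower and 2 higher, with a median of -0.12. Leaving out knockout pool 1 gave a median of -0.043, and leaving out wild-type pool 1 gave -0.077.

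**Figure D3:**
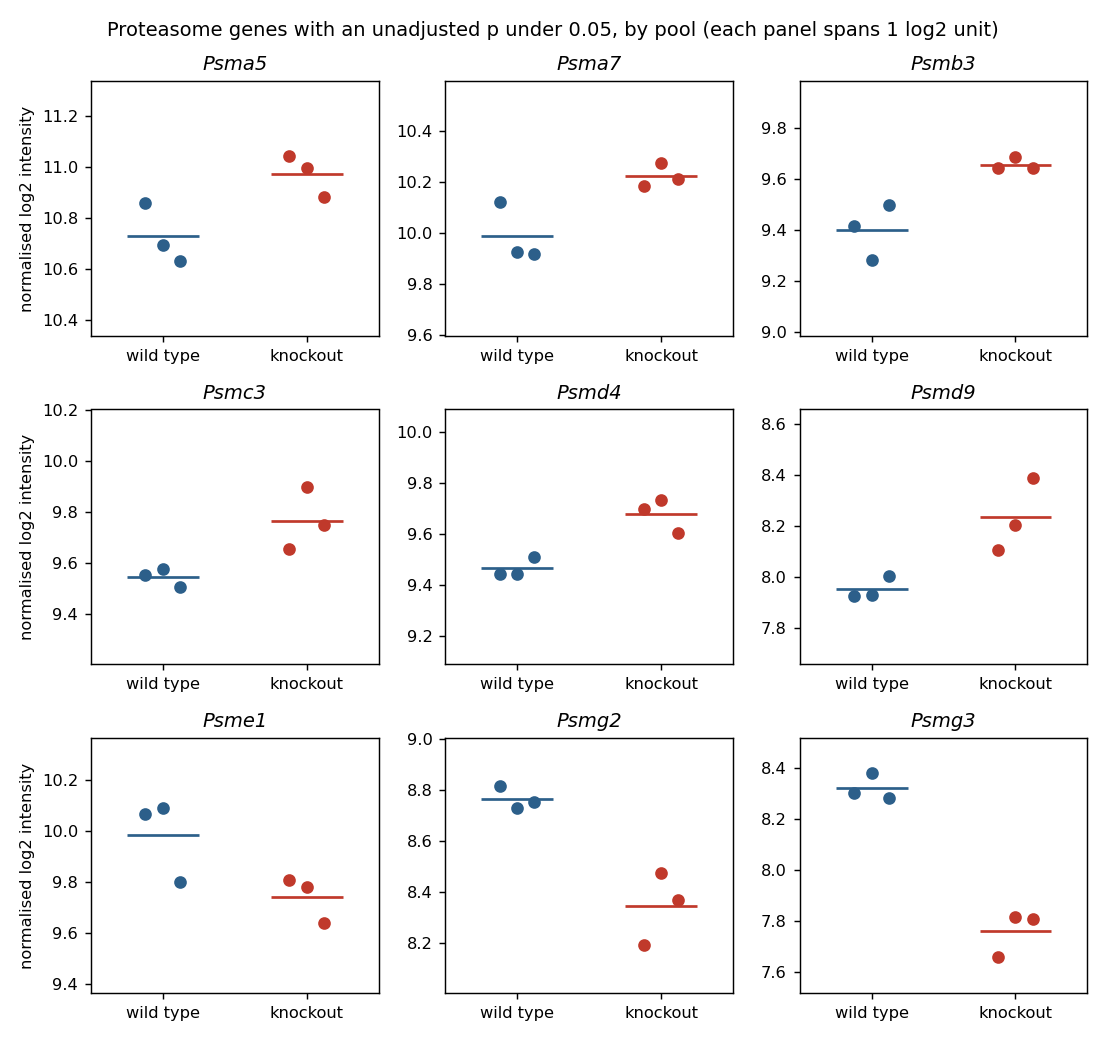
Normalised log2 intensity (y axis) in each pool (points) with the mean of each genotype (lines) for the 9 proteasome genes with an unadjusted p under 0.05, each panel spanning the same number of log2 units. The 6 that were higher in the knockout differ by 0.21 to 0.28, and Psmg3 and Psmg2 show the widest gaps, at 0.56 and 0.42 lower.

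Pool by pool, the median of the subunit genes deviated by small amounts, up in each knockout pool and down in each wild-type pool. Single genes within a pool did not all go one way. The median deviation of the 31 core and regulatory particle genes from their mean over all pools was 0.04, 0.10 and 0.03 log2 in knockout pools 1 to 3, against -0.09, -0.05 and -0.04 in the wild-type pools. In knockout pools 1, 2 and 3, 20, 28 and 21 of the 31 were above their own mean, and in the wild-type pools 7, 10 and 9. Knockout pool 2 held the highest value of the 6 for 17 of the 31 genes. Over all 11102 tested genes it held the highest value for 2613 and the lowest for 2174, more than any other pool at the high end. For the assembly chaperones the median deviations were -0.07, 0.05 and -0.01 in the knockout and 0.10, 0.17 and -0.09 in the wild type, so that their order over pools was not that of the subunits.

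**Figure D4:**
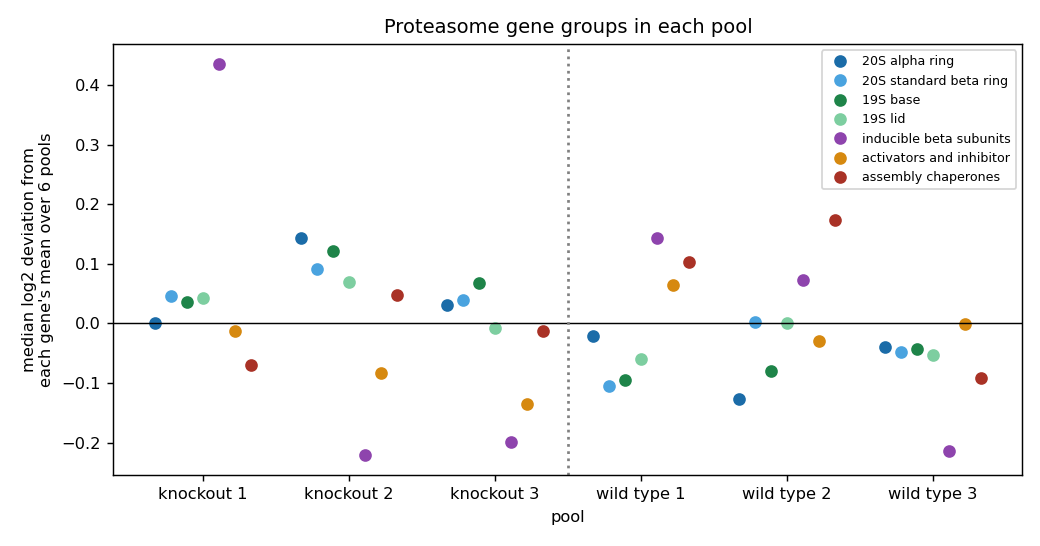
Median log2 deviation of each group of proteasome genes from each gene's mean over 6 pools (y axis), by pool (x axis), with knockout pools left of the dotted line. The inducible beta subunits swing most, from 0.44 in knockout pool 1 to -0.22 in knockout pool 2, while the 4 groups of standard core and regulatory particle genes stay between -0.13 and 0.14.

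Psmd6, a lid subunit, had a probe set that varied widely between pools of each genotype. Its brighter probe set was at 10.41, 10.46 and 10.32 in knockout pools 1 to 3, against 10.18, 10.43 and 10.37 in the wild-type pools, with a difference of 0.07 ± 0.09 (SE, n = 3 per genotype). Its dimmer probe set was at 9.30, 6.59 and 9.62 in the knockout and 9.13, 6.61 and 10.76 in the wild type. Pool 2 of each genotype was low and the other 4 pools were high, an 18.1-fold range on the normalised scale. The SD over the 6 pools was 1.70, rank 24 among 22519 tested probe sets. The difference between genotypes there was -0.33 ± 1.06 (limma adjusted p = 0.966), with a 95% interval from -2.74 to 2.07. The probes of this probe set are not placed on the transcript here.

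**Figure D5:**
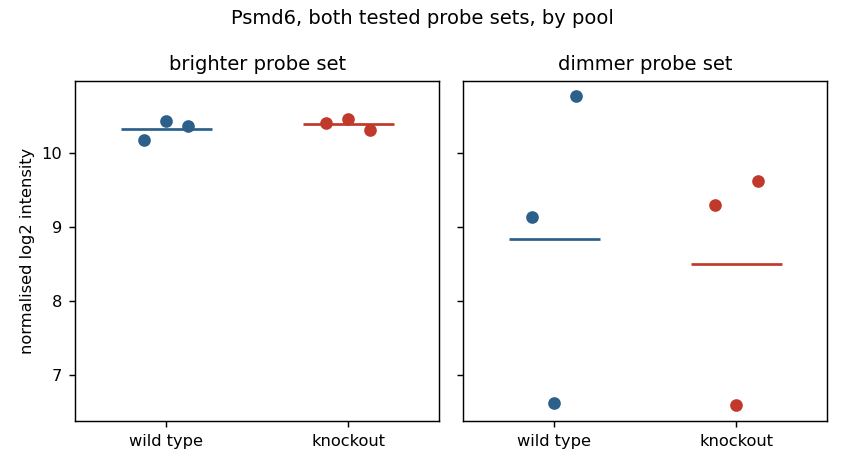
Normalised log2 intensity (y axis) of both tested Psmd6 probe sets in each pool (points), by genotype, with the mean of each genotype (lines). The brighter probe set stays between 10.18 and 10.46, whereas the dimmer one is at 6.59 and 6.61 in pool 2 of each genotype and at 9.13 or above in the others.

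Agreement between probe sets of a gene was checked for the 21 members with more than 1 tested. All tested probe sets had the same sign for 12 of them. For Psma1, Psma6, Psmb1, Psmb8, Psmc2, Psmd6, Psmd9, Psmd11 and Psmf1 they differed in sign. For Psma1, Psmb1 and Psma6 the opposing probe sets were dim, with normalised log2 values of 6.36 or less. The brightest probe set was of a kind that can bind related transcripts for 5 members, and the share of each transcript in their values is uncertain.

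Other genes of the pathway were taken from lists chosen by function. Of 10 tested factors that bind the proteasome, 6 were higher and 4 lower, with a median log2 difference of 0.01 and 0 at an unadjusted p under 0.05. They include Sem1, a small lid subunit, at 0.13 ± 0.10, the assembly factor Pomp at 0.07 ± 0.08, the scaffold Ecpas at 0.13 ± 0.12 and the ubiquitin ligase Ubr4 at -0.14 ± 0.13. Of 12 genes that control proteasome genes, 7 were lower and 5 higher, their median being -0.02. Nfe2l1 was at 6.95, 6.72 and 6.91 in the knockout and 6.90, 7.09 and 6.61 in the wild type, with overlapping pools and a difference of -0.01 ± 0.16. Nfyb, a subunit of the factor that binds CCAAT boxes, was at 8.44, 8.37 and 8.58 in the knockout and 8.06, 8.17 and 7.28 in the wild type, apart by 0.62 ± 0.22 (limma adjusted p = 0.569). Stat3 and Foxo4 were at 0.31 ± 0.14 and 0.26 ± 0.17, and the partner Stub1, a ubiquitin ligase, was at 0.11 ± 0.09.

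Of 10 tested genes of ubiquitin and its activation, 5 were higher and 5 lower, their median being 0.01, and the conjugating enzyme gene Ube2n was the one with an unadjusted p under 0.05, at 0.27 ± 0.11 (limma adjusted p = 0.612). Others near it were Ube2d1 at 0.32 ± 0.15, Ube2k at -0.15 ± 0.08 and Ube2g2 at -0.28 ± 0.17. Of 13 tested shuttle and p97 genes, 9 were higher and 4 lower, their median being 0.03. Among them the p97 cofactor gene Ubxn1 was at 0.27 ± 0.10 (limma adjusted p = 0.595), Nsfl1c at 0.19 ± 0.12, Ubqln4 at -0.17 ± 0.15 and Ubxn4 at -0.19 ± 0.11. Of 13 tested genes of class I antigen processing, which use the peptides the proteasome makes, 6 were higher and 7 lower, their median being -0.0047, and 0 at an unadjusted p under 0.05. The peptide transporter genes Tap1 and Tap2, which lie beside Psmb8 and Psmb9 in the genome, were at 0.20 ± 0.20 and -0.11 ± 0.16. The trimming enzyme gene Erap1 was at 0.21 ± 0.15, and the chaperone genes Canx and Calr at -0.10 ± 0.07 and -0.06 ± 0.06. Of the genes named from these pathway lists, Ecpas, Stat3, Ube2n, Ube2k and Erap1 had tested probe sets that differed in sign. For Ube2n and Erap1, 1 of 2 had the sign given.

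The members left to account for were dim or are no proteasome subunits. Psma8 and Psmb11, subunits of testis and thymus, had no probe set past the filter, and neither did Psmc3ip, a meiotic recombination gene whose symbol fits the rule. Psma8 lay between 3.82 and 4.76 on the log2 scale in all 6 pools and Psmb11 between 2.96 and 4.43, with overlapping groups. Psme3ip1, named for its binding to the nuclear activator, was at 7.54, 7.64 and 7.30 in the knockout and 7.62, 7.45 and 7.64 in the wild type, a difference of -0.08 ± 0.13. Of the 103 probe sets, 79 were tested and 24 were under the filter. Of the 79, 8 had an unadjusted p under 0.05 and were higher, against 3.75% of all tested probe sets, and 0 passed adjustment, against 0.142%. With no filter, 0 of the 103 passed a limma adjusted p of 0.05.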

How the data were processed

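The authors deposited probe set intensity on a linear scale for 6 arrays, 3 per genotype. The submitters' processing notes list GCOS 1.4 without its role, and the signal algorithm and scaling are not stated there. A pseudocount of 5.26, their 25th percentile, was added before log2, and arrays were quantile normalized. A log2 difference on this scale understates changes of dim probe sets. Without the 64 controls, the 22519 probe sets whose mean reached the median entered limma 3.58.1 (R 4.3.3; intensity trend, Benjamini-Hochberg over all tested). A gene took its brightest tested probe set. Gene names are those of the platform annotation, updated through Entrez identifiers for 34754 probe sets. Array ratios were compared by exact permutation with scipy 1.17.1.

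Members and gene lists were chosen with earlier results of these data known. Values in every pool are given for the catalytic subunits, activators, inhibitor and chaperones. They are also given for members with an unadjusted p under 0.05 and for the extremes of each group. Up to 4 genes with the smallest p are named from each other pathway list. From the interferon-stimulated, leukocyte and macrophage lists, only genes with an unadjusted p under 0.05 are named by p. The hepatocyte genes and the dim or untested leukocyte markers were not named by p. Irf1, Nfe2l1, Stub1 and Tap2 were named after their values were seen, as were members outside this rule. The alternatives were median centring, pseudocounts of 1.31 and 21.0, no filter or one at the 70th percentile, no trend, array weights, a replicate block, leaving out each pool in turn, and other ways to combine probe sets. The fit was tested on simulated data. The number of arrays limits the precision.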

Additional observations from a re-analysis of the deposited data

How the results depend on the processing

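No proteasome gene passed an adjusted p of 0.05 by limma in any alternative that gave one; the median of probe sets not ending in _x_at or _s_at gave none. The count of subunit genes of the core and regulatory particle that were higher stayed between 24 and 29, and between 26 and 29 without any 1 pool. The median log2 difference of the subunit genes was 0.066, that of all proteasome genes 0.031 and that of the lid 0.0091 with median centring, which moved the median of all genes from 0.01 to -0.03. The base median was 0.101 with median centring and 0.105 with the mean of probe sets. With the median of probe sets not ending in _x_at or _s_at the base was at 0.104, and the activators and inhibitor were at -0.12. The base median also moved with single pools. Without 1 pool it ran from 0.091, without knockout pool 2, to 0.18; it was also under 0.10 without wild-type pool 1 or 2. Without knockout pool 2 the lid median was 0.031. Without 1 pool the activators and inhibitor ran from -0.11 to -0.025 and the chaperones from -0.15 to -0.043. Proteasome genes with an unadjusted p under 0.05 that were higher numbered 6, but 0 with median centring, 0 without the intensity trend and from 0 to 5 without 1 pool (1 without knockout pool 2, 0 without wild-type pool 2). The sign of the inducible subunits' median turned with the pool left out, from -0.23 without knockout pool 1 to 0.17. Probe sets called numbered 32, against 19 with the filter at the 70th percentile, 20 with no filter, 18 without the intensity trend and 18 to 32 without 1 pool, but 40 with array weights and 41 with median centring. With the replicate number as a block 32 passed and 28 of 31 subunit genes were higher. Genes near 0 changed sign, and so did Psma1, Psmb1 and Psmf1, which were at 0.13, 0.14 and 0.12 in the main fit. The cause was not tested. With the mean of probe sets Psma1 was at -0.019, Psmb1 at -0.15, Psmb8 at 0.16, Psmc2 at 0.13, Psmd6 at -0.13 and Psmf1 at -0.034. With array weights Psmb2 was at 0.054, Psmb8 at 0.057, Psmb9 at 0.046 and Psmd11 at -0.0052, and with median centring Psmb6 was at -0.013 and Psmd11 at -0.0018. Without 1 pool, Psma3 ran from -0.015 to 0.039, Psmb2 from -0.091 to 0.090, Psmb6 from -0.035 to 0.16, Psmb8 from -0.23 to 0.11 and Psmb9 from -0.47 to 0.17. Likewise Psmc2 ran from -0.076 to 0.021, Psmd6 from -0.0095 to 0.12, Psmd7 from -0.028 to 0.010, Psmd11 from -0.021 to 0.091, Psme3ip1 from -0.15 to 0.020, Psme4 from -0.10 to 0.024, Psmf1 from -0.013 to 0.27 and Psmg1 from -0.13 to 0.054. Deviations of same-numbered pools 1, 2 and 3 correlated at 0.13, 0.05 and 0.25, and those of differently numbered pools at -0.19 to 0.10. The labels do not say that the numbers pair pools, so they were not taken as pairs in the main fit. Whether same-numbered pools share a source of spread was not tested. The number of arrays limits what can be seen. The SE of a proteasome gene's log2 difference had a median of 0.10. The median difference was 0.11 for the subunit genes and 0.07 for all proteasome genes.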
